A study of Mus musculus with 6 samples.

Results

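The genes described here are 9 genes of the neural crest and of endothelin signalling, Sox10, Ednra, Ednrb, Edn1, Ret, Pax3, Foxd3, Tfap2a and Crabp1, chosen from a named list and measured by every probe that the array's platform table assigns to them. Of these 9 genes, 8 have a probe there, out of 18005 genes that have a probe listed with 1 gene, and Ednra was not analysed here because no probe carries its name. The 8 genes have 10 probes, with 2 each for Ret and Pax3. RNA came from whole hearts of mouse embryos at embryonic day 11.5, one CodeLink array per sample. The mutant group, 3 arrays, had Dicer inactivated with a cardiac Cre recombinase knocked into the Nkx2.5 gene, so recombination followed the cells in which that locus is or was active. The control group, 3 arrays, is labelled only as control; its alleles are not stated in the sources at hand. The labels do not say whether arrays came from single embryos, pools or litters. Each p-value sets a group difference only against the spread among these arrays, and that spread may be technical.

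Neural crest cells leave the dorsal neural tube, migrate into the pharyngeal arches and, from there, enter the outflow tract of the heart, where they take part in its septation and form the cardiac ganglia. Pax3, Tfap2a, Foxd3 and Sox10 are transcription factor genes that act in succession while crest cells are specified, migrate and turn into neurons, glia or pigment cells. Endothelin-1, the product of Edn1, is a secreted peptide that signals through the G protein-coupled receptors encoded by Ednra and Ednrb; in the pharyngeal arches the epithelium and endothelium make the ligand and crest cells carry the A receptor. Ret, a receptor tyrosine kinase of the GDNF family ligands, marks crest cells that become autonomic and enteric neurons, and Crabp1 encodes a cytosolic retinoic acid binding protein that is abundant in migrating crest. Cardiac crest cells come from outside the heart field, and Nkx2.5 is best known from cardiac progenitors and pharyngeal endoderm.

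Dicer cuts miRNA hairpins into mature miRNAs, and some of these are known to repress members. Pax3 is a target of miR-27 and of the muscle miRNA miR-206 in myogenic cells, and Edn1 is a target of miR-125 in endothelial cells. Their mature sequences, from RefSeq on GRCm38.p6, are shown because they are products of the inactivated enzyme that bear on these members; the arrays did not measure them. The seed, bases 2 to 8 from the 5′ end, is in capitals.
mmu-miR-206-3p: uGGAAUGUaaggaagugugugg
mmu-miR-27a-3p: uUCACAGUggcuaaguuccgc
mmu-miR-27b-3p: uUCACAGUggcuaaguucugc
mmu-miR-125a-5p: uCCCUGAGacccuuuaaccuguga
mmu-miR-125b-5p: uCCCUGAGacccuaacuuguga

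These 5 miRNAs carry 3 seeds, 1 for miR-206, 1 shared by miR-27a and miR-27b, and 1 shared by miR-125a and miR-125b. On the plus strand, miR-206 lies at chr1:20679055-20679076, miR-27a at chr8:84208727-84208747, miR-27b at chr13:63300760-63300780 and miR-125a at chr17:17830817-17830840. The same mature miR-125b comes from 2 genes, at chr9:41581940-41581961 and chr16:77646279-77646300.

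The start sites of the endothelin ligand Edn1 and of its receptor gene Ednrb are shown as well, since they are the members of endothelin signalling that the arrays measured. Each window runs from 250 bases before to 50 bases after the annotated start, from RefSeq on GRCm38.p6, 5′ to 3′ along the gene, Edn1 at chr13:42301226-42301525 on the plus strand and Ednrb at chr14:103843652-103843951 on the minus strand. The capitals mark matches on either strand to GCCNNNGGC, the palindrome bound by TFAP2 proteins, and to AGATAA, a motif of GATA factors.
Edn1: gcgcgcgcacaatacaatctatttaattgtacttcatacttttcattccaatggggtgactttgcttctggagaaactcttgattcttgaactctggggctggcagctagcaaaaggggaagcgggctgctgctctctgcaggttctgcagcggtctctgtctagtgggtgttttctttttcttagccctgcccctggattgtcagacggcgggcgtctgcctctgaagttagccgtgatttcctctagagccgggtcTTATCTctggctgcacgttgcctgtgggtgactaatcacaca
Ednrb: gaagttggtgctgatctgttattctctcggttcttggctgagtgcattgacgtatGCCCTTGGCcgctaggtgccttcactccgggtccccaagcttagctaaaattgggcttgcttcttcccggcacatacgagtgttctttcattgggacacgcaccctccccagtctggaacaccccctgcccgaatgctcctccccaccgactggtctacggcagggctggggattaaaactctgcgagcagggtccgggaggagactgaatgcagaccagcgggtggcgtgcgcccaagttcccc

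The promoter table holds 6 of the 9 genes, and Sox10, Ret and Pax3 are named only. The Ednrb window holds the 1 TFAP2 match among the members' windows, a motif found in 16.6% of all windows of this length. The Edn1 window holds the 1 GATA match, on the opposite strand just past the annotated start, against 11.2% of all windows. The SOX core ACAAAG and the TATA motif TATAAA occur in 18.7% and 13.6% of all windows and in none of the members' windows. These motifs do not overlap each other in the printed windows. A match is a description of the letters and shows no binding.

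Of 36227 spots per array 74.1% to 78.2% exceeded background, and one fit covered 17727 listed probes. Dicer1 was lower in the mutants, at log2 levels of 6.74, 6.73 and 6.68 against 7.82, 7.63 and 7.71 in the controls, a difference of -1.005 ± 0.09 (SE, n = 3 each, limma adjusted p = 0.036). That call was lost with any single array other than control 3 left out, at adjusted p from 0.0661 to 0.325, while the difference stayed between -0.95 and -1.05. The offset of 50 added in the background correction pulls differences of dim probes towards 0, and without it the difference was -1.59 on the subtracted and -1.61 on the authors' normalized intensity. Whether this probe lies inside the deleted exon is unknown, so it may not check the deletion. The arrays did not separate by group along the first principal component, which held 54.1% of the variance: controls 1 and 2 had scores of 37.3 and 26.3, mutant 3 of 5.63, and the scores of mutant 1, control 3 and mutant 2 were -18.3, -20.8 and -30.1. Of 12 cardiomyocyte markers 11 were tested, each above background on at least 3 arrays, with mutant and control means from 6.54 and 6.25 for Myh6 and 6.53 and 6.65 for Ryr2 to 15.11 and 15.14 for Actc1.

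None of the 9 member probes that could be tested rose or fell by limma's test, against 0.0508% of all probes. At an unadjusted p under 0.05 there were 0 of 9, against 10.0% of all probes (6.75% higher and 3.26% lower in the mutant), and the groups overlapped in all 9, where 15.2% of all probes did not overlap. The count at an unadjusted p under 0.05 was 2 of 9 without mutant 3, 2 without control 3 and 1 without control 1. In the same fits 2748, 3719 and 1316 of all 17727 probes were under 0.05. The difference was above 0 in 4 probes and below 0 in 5, none of them called, with a median of -0.03 beside 0.02 over all probes. The 95% interval of the difference lay within 1 log2 unit of 0, which is a 2-fold change in either direction, for 7 of the 9 probes, against 90.8% of all probes. Ednrb and Ret were the exceptions. In RNA from a whole organ, fewer cells of a type and less RNA per cell cannot be told apart.

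**Figure D1:**
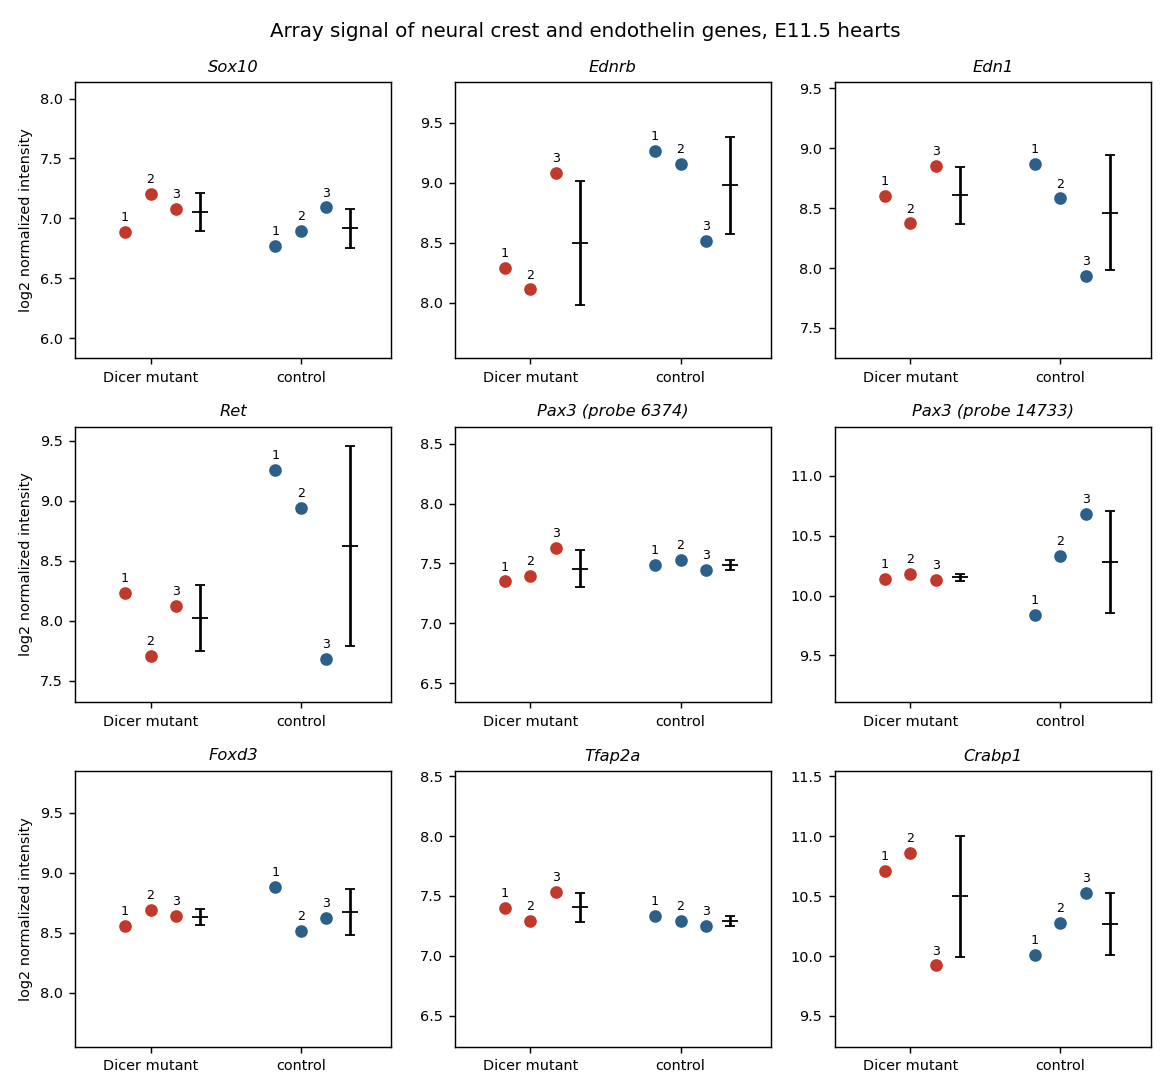
Log2 normalized intensity (y axis, each panel spanning the same range around its own centre) of the 9 tested member probes in 3 Dicer mutant (red) and 3 control (blue) hearts; numbers are replicates, black bars are mean ± SD. The groups overlap in every panel, and in the Ret panel controls 1 and 2, at 9.26 and 8.94, stand above the other 4 arrays, which lie between 7.68 and 8.23.

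The ligand gene Edn1 was measured at log2 levels of 8.60, 8.37 and 8.85 in mutants 1, 2 and 3 and at 8.87, 8.58 and 7.93 in controls 1, 2 and 3. Levels here are log2 of the corrected and quantile-normalized intensity and are compared only within a probe. Control 3 was the lowest of the 6 arrays, and the other 5 lay within a range shared by both groups. The difference, mutant minus control, was 0.15 ± 0.25 (SE, limma adjusted p = 0.863), and the 95% interval ran from -0.46 to 0.75. Without control 3 it was -0.12, so its sign rests on that array. For this target of miR-125, whose seed is printed above, the interval of the mutant level ran from 0.727 to 1.68 of the control level.

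Ednrb, the gene of the B receptor, which binds all endothelins and is needed by melanocyte and enteric crest precursors, gave 8.29, 8.11 and 9.08 in mutants 1 to 3, against 9.27, 9.16 and 8.52 in controls 1 to 3. Mutants 1 and 2 were the lowest arrays, yet mutant 3 lay above control 3 and close to the other controls. The mutant mean was 8.49 ± 0.52 and the control mean 8.98 ± 0.40 (SD, n = 3 each), a difference of -0.49 ± 0.31 (SE, limma adjusted p = 0.614). In linear terms the mutant level was 0.714 of the control, with a 95% interval from 0.43 to 1.18, which includes both a loss beyond 2-fold and no change. Leaving out mutant 3 gave -0.78 (adjusted p = 0.241) and leaving out control 3 gave -0.72 (adjusted p = 0.232). Leaving out mutant 2 gave -0.30.

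Ret had the widest spread of the members. Its probe read 8.23, 7.71 and 8.12 in mutants 1 to 3, against 9.26, 8.94 and 7.68 in controls 1 to 3. Controls 1 and 2 stood above every mutant, and control 3 was the lowest array of all. The difference was -0.60 ± 0.40 (SE, limma adjusted p = 0.632), or 0.658 of the control level with a 95% interval from 0.338 to 1.28. Without control 3 it was -1.08 with an adjusted p of 0.0567, and without control 1 it was -0.29 with an adjusted p of 0.926. The fit without control 3 called 320 probes in all, against 9 with all 6 arrays. The second Ret probe, number 20278, was flagged not well above background on all 6 arrays, with a subtracted intensity of 1.5 to 11.4 over a local background of 37 to 42, and was not tested.

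The probes of the specification factors varied less within groups than those of Ret and Ednrb. Pax3, the paired-box gene of the dorsal neural tube and of skeletal muscle precursors, has a dim and a bright probe. The bright one, number 14733, read 10.14, 10.18 and 10.13 in the mutants, which agreed closely, and 9.84, 10.33 and 10.68 in the controls, which enclosed them. Its difference was -0.13 ± 0.21 (SE, limma adjusted p = 0.849), and it turned to 0.07 without control 3. The dim one, number 6374, read 7.35, 7.39 and 7.63 in mutants 1 to 3, against 7.49, 7.53 and 7.44 in controls 1 to 3, a difference of -0.03 ± 0.11 (SE, adjusted p = 0.939). The 2 probes did not follow each other over the arrays (Pearson r = -0.10 over 6 arrays), so they are given separately; their mean gave -0.08. For a gene listed above as a target of miR-27 and miR-206, the intervals were -0.62 to 0.36 and -0.28 to 0.22.

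Foxd3, a forkhead gene that keeps premigratory crest undifferentiated, read 8.55, 8.69 and 8.64 in mutants 1 to 3, against 8.88, 8.51 and 8.62 in controls 1 to 3. The mutants lay inside the range of the controls. Its difference was -0.04 ± 0.12 (SE, limma adjusted p = 0.915), with a 95% interval from -0.33 to 0.24. Tfap2a, which encodes AP-2 alpha and acts in crest and surface ectoderm, read 7.40, 7.29 and 7.53 in mutants 1 to 3, against 7.34, 7.29 and 7.25 in controls 1 to 3. Its difference was 0.11 ± 0.10 (SE, adjusted p = 0.706) and its interval, -0.12 to 0.35, was the narrowest of the 9 probes. Both probes were above background on all 6 arrays.

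Sox10, the SoxE factor gene that marks migrating crest and later its glial and melanocyte lineages, read 6.89, 7.20 and 7.08 in mutants 1 to 3, against 6.77, 6.90 and 7.09 in controls 1 to 3. Control 1 was the lowest and mutant 2 the highest array, and the groups shared most of their range. The difference was 0.14 ± 0.13 (SE, limma adjusted p = 0.732), with a 95% interval from -0.17 to 0.45. The signal was low, at a subtracted intensity of 54.8 to 97.5 over a local background of 35 to 44, and on the subtracted intensity, without the offset, the difference was 0.24 (adjusted p = 0.715).

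Crabp1 read 10.71, 10.86 and 9.92 in mutants 1 to 3, against 10.01, 10.28 and 10.53 in controls 1 to 3. Mutants 1 and 2 were the highest arrays and mutant 3 the lowest. The difference was 0.23 ± 0.27 (SE, limma adjusted p = 0.792), with a 95% interval from -0.41 to 0.87, and it was 0.52 without mutant 3 and 0.05 without mutant 2.

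**Figure D2:**
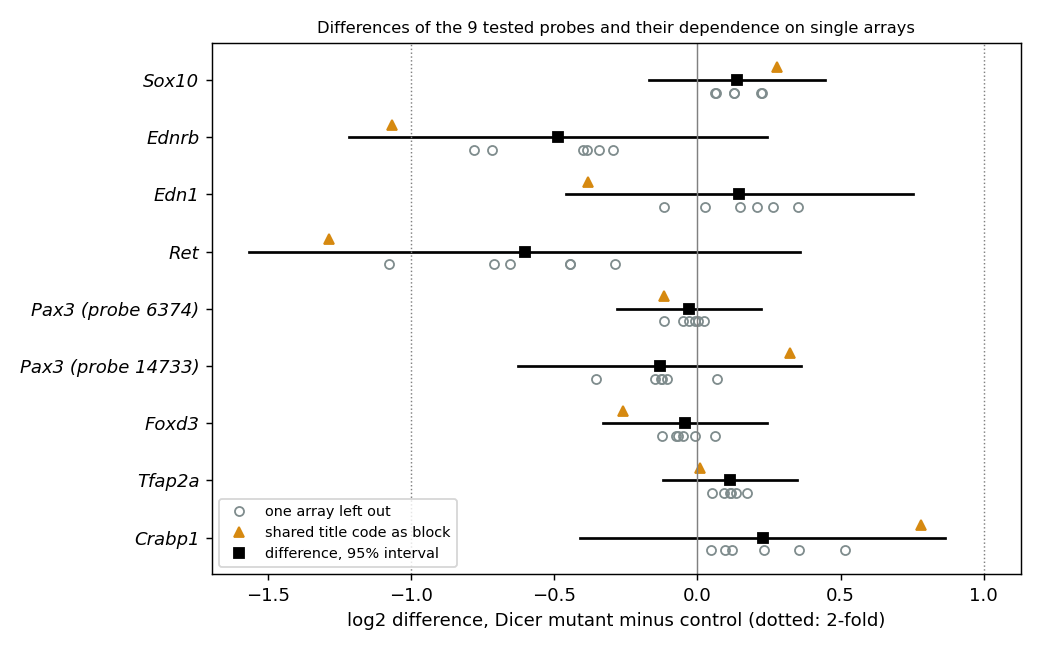
Log2 difference, Dicer mutant minus control, for the 9 tested probes: squares with lines are the difference and its 95% interval (n = 3 each), open circles leave out 1 of the 6 arrays, triangles take the code shared by array titles as a block, dotted lines mark a 2-fold change. All 9 intervals include 0; for Ret the single-array values run from -1.08 to -0.29 and for Tfap2a from 0.05 to 0.17.

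How far the members varied between arrays of one group differed widely. The within-group SD of Ret, 0.623, was larger than that of 97% of all probes tested, and those of Ednrb (0.465), Crabp1 (0.401) and Edn1 (0.380) were larger than 93.7%, 91.2% and 89.9%. The SDs of Tfap2a, at 0.0905, and of the dim Pax3 probe, at 0.111, were larger than only 17.4% and 26.8%. Both probes were dim, and the offset pulls differences of dim probes towards 0. The bright Pax3 probe had an SD of 0.300, larger than 82.5%. The median over all probes was 0.164.

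Ret and Ednrb followed a similar order of arrays. They were highest in controls 1 and 2, and correlated with each other at r = 0.78 and with the first principal component at 0.94 and 0.95 (Pearson, 6 arrays, as a description). Edn1 followed that component less closely, at 0.66, with mutants 1 and 3 above control 2. Crabp1 ran the other way, at -0.82 with the component and -0.94 with Ednrb, as did Sox10, at -0.76 with the component and -0.90 with Ret. All of a probe's points come from the same 6 arrays, so whatever differs between arrays enters every profile, and such values are no finding. For Sox10, the probes with the most similar profile were those of Trip4 (r = 0.995), Ms4a6d (0.992) and Timm50 (0.991), and 58 of 17558 probes had an r over 0.95 with it.

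Some markers of other tissues were also highest in controls 1 and 2. Epicardial markers, of which 7 of 8 were tested, had a summed normalized intensity of 140 in control 1 and 119 in control 2, against 58.9 to 80.6 in the mutants and 61.8 in control 3. Their mean log2 deviation from the average of the arrays was 0.27 and 0.21 in controls 1 and 2 and between -0.17 and -0.06 elsewhere. These genes did not move as one: Bnc1 and Tcf21 had group differences of -1.21 and -0.48, Wt1 of 0.11, Tbx18 of -0.004 and Upk3b of 0.20, none called. Cardiomyocyte markers deviated by -0.19 and -0.09 in controls 1 and 2, by 0.305 in control 3 and by -0.07 to 0.04 in the mutants, with summed levels of 1599 to 1837 in the mutants and 1564 to 1726 in the controls. Erythroid markers, 7 of 9 tested, deviated by 0.575 and 0.378 in controls 1 and 2, by -0.35 in control 3 and by -0.37 to -0.01 in the mutants, with summed levels of 934 to 1093 in the mutants and 908 to 1288 in the controls. The sums do not keep that order, since control 2, at 966, lay below mutant 3, and they include the very bright globin probes of Hbb-bh1 and Hba-x, with mutant means of 15.23 and 14.96. Hbb-bh1 had an SD of 0 over the mutants, and 184 to 263 spots per array were flagged saturated. This limits what the sums and the differences of the brightest probes can show. Endothelial markers, 10 of 12 tested, deviated by -0.17 to 0.07, with summed levels of 108 to 141 in the mutants and 112 to 126 in the controls. Pharyngeal, foregut and lung bud markers deviated by 0.087 and 0.099 in controls 1 and 2 and by -0.12 to -0.02 elsewhere. Lists related to the members, described below, were also highest there. Other endothelin genes deviated by 0.127 and 0.121 (at most 0.051 elsewhere), other crest transcription factors by 0.107 and 0.126 (at most 0.029 elsewhere). Each marker tested was above background on at least 3 arrays; Msln, of the epicardial list, and Cdh5 and Flt1, of the endothelial one, were not tested because they were not. The part of these tissues in the profiles of Ret and Ednrb was not tested.

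**Figure D3:**
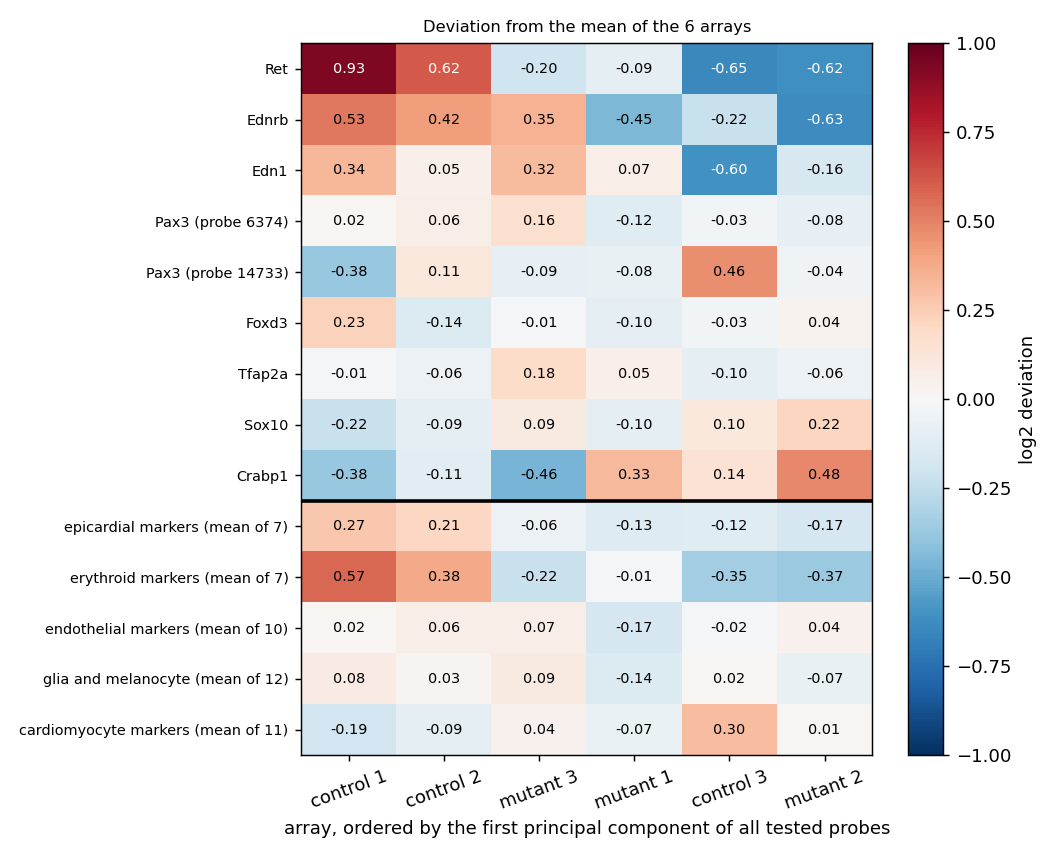
Log2 deviation of each array from the mean of the 6 arrays, for the 9 member probes (above the line) and for the mean of the tested genes of 5 marker lists (below it), with arrays ordered by the first principal component; red is above and blue below the mean. Controls 1 and 2, at the left, are high for Ret (0.93 and 0.62), Ednrb, and the epicardial and erythroid means, while control 3 sits beside mutants 1 and 2.

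Mutants 1 and 2 and control 1 share a code in their array titles, and each of the remaining 3 arrays has a code of its own; the labels do not say what it stands for. Within the shared code, mutants 1 and 2 differed from control 1 by -1.29 for Ret, -1.07 for Ednrb, -0.38 for Edn1 and 0.78 for Crabp1. With this code as a block limma called 2 of the 9 member probes, Ednrb (adjusted p = 0.027) and Crabp1 (adjusted p = 0.044), but that fit called 1351 probes in all and rests its difference on 1 control, whose own spread it cannot measure. Control 1 is one of the arrays at the end of the order described above, so its distance from the mutants cannot be told apart from a difference between the groups in this fit. A number shared by 1 mutant and 1 control title gave differences of -1.02, -1.23 and 0.45 for Ret and of -0.98, -1.05 and 0.57 for Ednrb, so that the third pair ran the other way in both genes.

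Other genes were counted from 11 lists, 5 of pathways and lineages related to the members and 6 of tissue markers, each gene by its brightest tested probe. Over the 126 tested genes of all 11 lists limma called 0, with 8 higher and 10 lower at an unadjusted p under 0.05 (6.75% and 3.26% of all probes), and the groups did not overlap in 15 genes (11.9%, against 15.2% of all probes). Of 21 further endothelin signalling genes 19 were tested, 0 rose and 0 fell, and the median difference was -0.02. Those with the smallest p were Dlx3, a homeobox gene related to the Dlx genes that endothelin controls in the arches, at -0.79 ± 0.45 (SE, adjusted p = 0.583), and Hand1, a basic helix-loop-helix gene of the ventricle and arches, at -0.39 ± 0.23 (SE, adjusted p = 0.59). Hand1 was called without control 3, at -0.66 (adjusted p = 0.0494), in a fit that called 320 of all probes. In both genes controls 1 and 2 were the highest arrays, as in Ret: Dlx3 read 11.78 and 11.69 in controls 1 and 2 and 10.67 in control 3, against 10.38, 9.96 and 11.43 in the mutants.

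Partners of the members were also read, named for their role outside the naming rule. Ece1, the converting enzyme that releases active endothelin from its precursor, was bright and steady, with 12.43, 12.55 and 12.54 in mutants 1 to 3, against 12.71, 12.58 and 12.30 in controls 1 to 3, a difference of -0.02 ± 0.13 (SE, limma adjusted p = 0.962). Its sign turned with median scaling, at 0.03, and with the authors' normalized intensity, at 0.01. Edn3, the ligand of Ednrb in melanocyte and enteric precursors, gave -0.04 ± 0.10 (SE, adjusted p = 0.898), and -0.16 on the subtracted intensity (adjusted p = 0.824). Its signal was dim, at log2 levels of 6.19 to 6.42, which limits what the small SE can show. Edn2 varied most, from 6.69 in control 3 to 9.09 in mutant 3, and its difference of 0.01 ± 0.68 (SE, adjusted p = 0.996) turned to -0.71 without mutant 3 and to -0.008 with median scaling, -0.035 with cyclic loess and -0.079 with the authors' normalized intensity. Gfra1, the GDNF co-receptor of Ret, gave -0.14 ± 0.13 (SE, adjusted p = 0.713), its other probe -0.16, and the first probe -0.44 on the subtracted intensity (adjusted p = 0.645). That first probe was also dim, at 6.16 to 6.54.

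Of 25 other crest transcription factors 19 were tested, 0 rose and 0 fell. The difference was below 0 in 13 of them, with a median of -0.08. At an unadjusted p under 0.05, 3 were lower and 0 higher in the mutant, against 3.26% and 6.75% of all probes. The groups did not overlap in 1, against 15.2% of all probes. The summed normalized intensity of the 19 was 122 to 140 in the mutants against 152 to 166 in the controls. The sums of the members and of every other list overlapped between the groups. Each sum is linear, so bright genes weigh most in it. Msx1 and Msx2, homeobox genes that are Bmp targets in crest and cushion mesenchyme, had the smallest p. Msx1 gave -0.52 ± 0.18 (SE, limma adjusted p = 0.409), with 8.30, 8.25 and 8.46 in mutants 1 to 3, against 9.01, 9.11 and 8.45 in controls 1 to 3. Without control 3 it was called, at -0.72 (adjusted p = 0.0471), in the fit that called 320 of all probes. Msx2 gave -1.04 ± 0.42 (SE, adjusted p = 0.48) and read 11.41 and 11.28 in controls 1 and 2, as in Ret the highest arrays. Mutant 3, at 10.99, lay above control 3, at 10.62.

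Of 18 genes of Ret and GDNF signalling and autonomic neurons 14 were tested, 0 rose and 0 fell, and the median was -0.05. Nrtn, which encodes the Ret ligand neurturin, was lower in the mutants with no overlap, at 8.61, 8.73 and 8.28 against 9.23, 9.23 and 9.50, a difference of -0.78 ± 0.15 (SE, limma adjusted p = 0.164). It did not pass the test over all probes. Unlike Ret it was highest in control 3. Gfra2, the co-receptor that binds neurturin, gave 0.61 ± 0.23 (SE, adjusted p = 0.436), with mutants 1 and 2 at 7.91 and 7.96, mutant 3 at 7.21 and the controls at 6.89, 7.01 and 7.33.

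Schwann cell, glial and melanocyte genes, lineages that Sox10 marks, had 12 of 15 tested, with 6 above and 6 below 0 and a median of -0.002. Nrg1, the neuregulin that acts on Erbb3 in crest-derived glia and on Erbb4 in the myocardium, gave 0.35 ± 0.09 (SE, limma adjusted p = 0.257), with all mutants between 7.24 and 7.35 above all controls between 6.883 and 7.002. Egr2, a zinc finger gene of the hindbrain and of myelinating Schwann cells, gave -0.81 ± 0.26 (SE, adjusted p = 0.357), with the mutants at 6.57 to 7.07 and the controls at 7.11 to 8.06. Neither was called. On the subtracted intensity they gave 0.56 (adjusted p = 0.302) and -1.26 (adjusted p = 0.39).

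Among other retinoid genes, the pathway of Crabp1, 10 of 15 were tested, 0 rose and 0 fell, with a median of -0.06. Aldh1a1, a retinaldehyde dehydrogenase gene, gave 0.84 ± 0.16 (SE, limma adjusted p = 0.165), at 9.50, 9.70 and 9.23 in mutants 1 to 3, against 8.78, 8.72 and 8.41 in controls 1 to 3, with no overlap. Rarb, the receptor gene that retinoic acid induces, gave 0.46 ± 0.18 (SE, adjusted p = 0.461), and its dimmer probe 0.16.

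**Figure D4:**
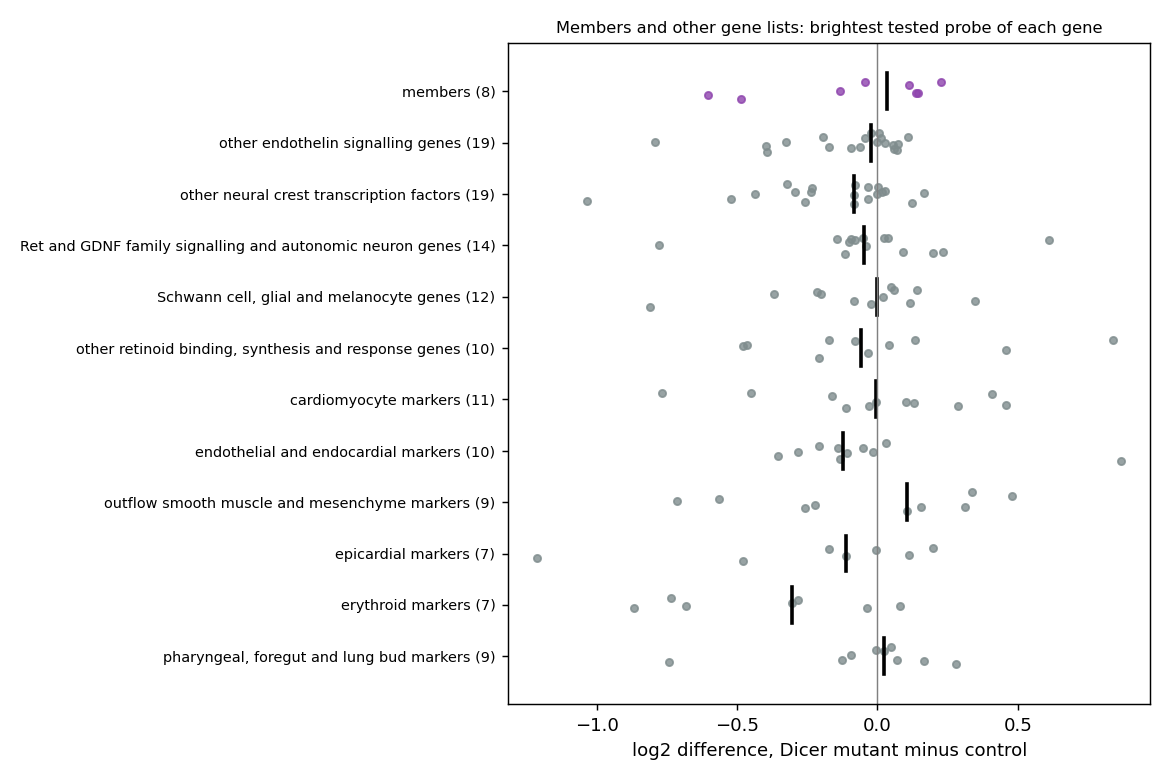
Log2 difference, Dicer mutant minus control, of each tested gene by its brightest probe, for the members (purple) and the 11 other lists (grey); bars are list medians and numbers in brackets are the genes tested. The members' median of 0.03 over 8 genes lies near those of the other lists, which run from -0.30 for erythroid markers to 0.11 for smooth muscle and mesenchyme markers.

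The lists for other tissues in or near the heart gave no call either. For cardiomyocyte markers, 11 of 12 tested, the median was -0.006, with Tnni3 at 0.41 ± 0.16 and Tnnt2 at 0.46 ± 0.19 (SE), limma adjusted p 0.473 and 0.495. The difference was above 0 in 5 of them and below 0 in 6, with Actn2 at -0.77 ± 0.40 and Myh7 at -0.45 ± 0.38 (SE), adjusted p 0.568 and 0.702. Endothelial and endocardial markers had a median of -0.12, with 8 of 10 below 0 and 5 of 10 without overlap between the groups (Vwf, Cd34, Esam, Kdr and Tie1, against 15.2% of all probes), Vwf at 0.87 ± 0.22 and Cd34 at -0.35 ± 0.10 (SE), adjusted p 0.262 and 0.31. Outflow smooth muscle and mesenchyme markers, 9 of 10 tested, had a median of 0.11, with 3 without overlap (Postn, Cnn1 and Twist2), Postn at -0.56 ± 0.12 and Cnn1 at 0.48 ± 0.11 (SE), adjusted p 0.209 and 0.212; their summed levels were 307 to 407 in the mutants and 314 to 350 in the controls. Epicardial markers had a median of -0.11, with Bnc1 at -1.21 and Upk3b at 0.20 (0.44 on the subtracted intensity), and erythroid markers a median of -0.30, with Gata1 at -0.68 and Rhag at -0.30. Pharyngeal, foregut and lung bud markers, 9 of 15 tested, had a median of 0.02, with Krt5 at 0.28 (0.55 on the subtracted intensity) and Sox2 at -0.74, and their summed levels were 41.2 to 51.2 in the mutants and 44.0 to 53.6 in the controls. Sox2 read 8.62 and 8.59 in controls 1 and 2 and between 6.71 and 7.44 in the other arrays. Without control 3 it was called, at -1.37 (adjusted p = 0.0435), in the fit that called 320 of all probes. The part of adjacent pharyngeal tissue in the members' levels was not tested.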

How the data were processed

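The deposited scanner files give, per spot, a mean intensity, the median of its local background, a subtracted intensity, the authors' normalized intensity and a quality flag. Per the file headers and values, the subtracted intensity is the spot mean minus the background median, and the median ratio of it to the normalized intensity was 66.1 to 82.8 per array. The series' value table holds the same normalized intensity for spots flagged good, with column medians of 1.83 to 2.06 on a linear, uncentred scale. No source used here names the scanner or its software. Masked spots were treated as missing.

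Spot means were corrected with normexp (offset 50), converted to log2 and quantile-normalized over the 21880 spots listed with a gene, in limma 3.58.1 under R 4.3.3. A probe was tested when flagged above background on at least 3 of 6 arrays (17727 probes). Groups came from the labels' descriptions and were tested by lmFit and eBayes (two-sided) with Benjamini-Hochberg adjustment over all probes tested and a threshold of 0.05. The number of arrays limits the precision. The fit was tested on simulated data, with the outcome not reported here.

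Symbols matched RefSeq by gene number for 21541 of 21676 spots with 1 gene. Members and lists were chosen with earlier results of these data known. Named are all member probes, the 2 genes of smallest p per list (and up to 4 that passed; none did), Dicer1, and the 3 probes most like Sox10. No block was used, since the design text states none. The deviations of same-numbered mutant and control titles correlated at 0.01, -0.48 and -0.38 over 17695 probes. Deviations were taken from the mean of each group's own 3 arrays, so these values cannot show whether a pairing exists. The alternatives tried were other background corrections, scalings and filters, a block, each array left out, all spots, and the mean of a gene's probes.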

Additional observations from a re-analysis of the deposited data

How the results depend on the processing

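The count of 0 member probes called held under every alternative run except the code shared by array titles as a block, which called 2, with Ednrb at -1.07 and Crabp1 at 0.78; there Edn1 stood at -0.38 and the bright Pax3 probe at 0.32. Of 154 values of member probes, 145 kept direction and side of the threshold, 7 changed sign without a call and 2 gained a call. With each array left out in turn, Edn1 ran from -0.12 to 0.35, the Pax3 probes from -0.35 to 0.067 and from -0.12 to 0.024, and Foxd3 from -0.13 to 0.060. Over all probes the count of 9 became 5 on the subtracted intensity, 4 on the authors' normalized intensity and 5 on the value table. It became 0 with a replicate block by title number and 1351 with the title-code block. Without control 3 it was 320, and with any other array left out it was 0 or 1. The cause was not tested. The replicate block changed no call of a member, and Dicer1 lost its call under it (adjusted p = 0.517). In the other lists the count of 0 became 21 with the title-code block and ranged from 0 to 6 with arrays left out, the 6 without control 3. Edn2 turned to -1.36 with the title-code block (adjusted p = 0.0193). Over all alternatives, 14 other values of named list genes gained a call, either with that block or without control 3. Hand1, Msx1 and Sox2 gained one in both fits. Signal over background limits Sox10, the dim Pax3 probe and Tfap2a and, among the partners, Edn3 and Gfra1.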
